A study of Mus musculus with 72 samples.

Results

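The comparison described here is between the pituitaries of adult male mice born to food-restricted dams and those of male mice born to freely fed dams, where all the offspring ate a high-fat diet. Its members were chosen by the deposited column names, which give the maternal group, the diet and the tissue, and they are 12 of the 72 libraries of the series and 12 of its 24 pituitary libraries. The series covers pituitary, epididymal white adipose tissue (eWAT) and liver of the same 24 mice. The mice were of the strain FVB.129P2-Pde6b+ Tyrc-ch/AntJ, an FVB line with normal sight. Dams of the FED group ate freely, and dams of the CR20 group received 20% less food than a paired FED dam from embryonic day 15 until weaning on postnatal day 21. At 8 weeks of age the offspring moved to the control diet (CTRL, 10% fat) or the high-fat diet (HFD, 45% fat) for 10 weeks, so that they were 18 weeks old at the end.

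The CR20-HFD group consists of mice 6, 7, 31, 32, 45 and 46, and the FED-HFD group of mice 10, 11, 12, 13, 23 and 40. Each of the 12 is a separate male mouse that ate the 45% fat diet for 10 weeks and was 18 weeks old. The CR20-CTRL and FED-CTRL groups, with 6 other mice each, ate the 10% fat diet for the same time and are used for comparison. Which mice came from the same dam is not given in the sources used here, so mice of a group that shared a litter cannot be told from those that did not. Whole pituitaries were used, which hold the hormone cells of the anterior lobe, the intermediate lobe, the posterior lobe, vessels and connective tissue.

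The anterior pituitary holds somatotropes, lactotropes, corticotropes, thyrotropes and gonadotropes, each of which makes a hormone (growth hormone, prolactin, the precursor of corticotropin, thyrotropin and the gonadotropins) under the control of hypothalamic releasing factors and of feedback from the hormones of the target glands. Somatotropes are the most numerous of them in the adult mouse and supply the growth hormone that acts on liver, fat and muscle. Fibroblasts, pericytes, capillary endothelium, macrophages and folliculostellate cells surround the hormone cells.

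The total count was between 19255372 and 27601208 in CR20-HFD and between 18299494 and 23393946 in FED-HFD, and the groups overlapped (exact permutation p = 0.426, n = 6 mice per group). Gene levels are given as log2 CPM, the base 2 logarithm of the counts scaled to the library total (CPM), after normalization between libraries, and 3 counts corresponded to 0.109 to 0.164 CPM in these 12 libraries. Transcripts of the mitochondrial genome made up 1.54, 1.89 and 2.08% of the counts in CR20-HFD (lowest, median and highest mouse) and 1.46, 1.97 and 2.71% in FED-HFD (exact permutation p = 0.578, n = 6 mice per group). Gh, which encodes growth hormone, made up 24.3, 27.7 and 29.1% of the counts in CR20-HFD and 22.3, 27.8 and 32.9% in FED-HFD. The ranges of the 2 groups overlapped in each of these measures. Per kilobase of exon, the mean over the 24 libraries was 314388 CPM for Gh, 19045 for Pomc (the precursor of corticotropin), 7514 for Prl (prolactin) and 422 for Fshb (the beta subunit of follicle-stimulating hormone), so the label pituitary fits the defining markers of the tissue. The marker of the other gonadotropin, Lhb, could not be read, because its symbol belongs to 2 identifiers and the tested identifier, which lies antisense to Ruvbl2, had at most 17 counts.

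Several libraries stood apart from the rest of their group. FED-HFD mouse 10 had a summed level of 46.1 CPM over the adipocyte markers Adipoq, Lep, Plin1 and Cidec, where the other FED-HFD mice had at most 0.383 and the CR20-HFD mice at most 0.449. FED-HFD mouse 13 had 13926 CPM over the red blood cell markers, and the next mouse of its group 2114. FED-HFD mouse 12 had the highest mean level of the immediate early genes, which respond to stimulation within minutes (5.26 against a group median of 3.79, log2 CPM). FED-HFD mouse 40 had the highest mean level of the interferon-stimulated genes (4.83 against 3.86). CR20-HFD mouse 7 was lowest in Ghrhr, the receptor for growth hormone-releasing hormone, with 6.80 where the next mouse had 7.52. Results that rest on these mice are given below with and without them, and these fits were chosen after seeing the data.

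Between all genes, the Pearson correlation of the log2 CPM values had a median of 0.984 between pairs of CR20-HFD libraries, 0.978 between pairs of FED-HFD libraries and 0.981 between libraries of different groups, values taken across genes, which are not independent replicates. The main axis of variation among the 12 libraries held 15.3% of the variance. CR20-HFD mice 31, 32, 45 and 46 lay at 12.8 to 37.5 on it, while CR20-HFD mice 6 and 7 lay at -9.30 and -21.0 and the FED-HFD mice at -19.0 to 3.29 (exact permutation p = 0.0649, n = 6 mice per group). FED-HFD mice 23 and 40 lay farthest along the next axis (14.1% of the variance), at 32.7 and 28.9.

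Across the pituitary, no gene passed the test between CR20-HFD and FED-HFD. Among the leading genes on the higher side in CR20-HFD are Col1a1, a chain of type I collagen (log2 fold change, or log2FC, 0.43, standard error 0.09), and Lingo1, a neuronal membrane protein (0.51, standard error 0.12). Among the 10 leading genes on the lower side are Rab38, a small GTPase of vesicle transport (-0.66, standard error 0.18), and Irf8, a transcription factor of myeloid cells (-1.18, standard error 0.31, but -0.49 without FED-HFD mouse 40). Each of these 4 genes had an adjusted p = 0.388, with 6 mice per group.

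By edgeR's quasi-likelihood test, 0 of the 16657 tested genes (0%) had an adjusted p under 0.05, and 51 genes shared the smallest adjusted p of 0.388. An unadjusted p under 0.05 was found for 1127 genes (6.77%), of which 554 were higher in CR20-HFD (3.33%) and 573 lower (3.44%). The count of called genes was also 0 by limma's voom with quality weights (1932 at an unadjusted p under 0.05, smallest adjusted p = 0.0630), by voom without weights (1051) and by DESeq2 (1139, smallest adjusted p = 0.103). With no filter on low counts, edgeR called 16 of 31862 genes, 5 higher and 11 lower, and only 4 of these 16 had passed the filter. In every fit without a mouse edgeR called 0 genes, and the unadjusted count lay between 927 (without FED-HFD mouse 13) and 1422 (without CR20-HFD mouse 7).

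The differences were small. Over all tested genes the median absolute log2FC was 0.10, the median standard error 0.13 and the median log2FC 0.0025, with 8445 genes above 0 and 8212 below. Among the 1127 genes at an unadjusted p under 0.05, the median absolute log2FC was 0.36 and 749 genes lay under 0.5. The 126 genes of absolute log2FC of at least 1 divided unevenly, 29 higher and 97 lower. The lower ones include Cox8b, Hp, Irf8 and Egr1, whose log2FC fell under 1 in size without a single FED-HFD mouse, as given below. Tcstv4 and Klrk1 stayed over 1 in size without any mouse. How the 126 genes divide without those FED-HFD mice is not given here. Among the 4165 tested genes with the lowest levels (a mean log2 CPM of at most 1.46), 97 were higher and 185 lower at an unadjusted p under 0.05, and among the 4164 with the highest levels (at least 5.23) 164 were higher and 77 lower. Of 14491 protein-coding genes, 527 were higher and 464 lower, and of 1309 long noncoding RNA genes, 17 were higher and 65 lower. The strand setting of the counting is not given in the sources used here, so genes that overlap another gene on the opposite strand are uncertain, as are members of families of near-identical genes.

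**Figure D1:**
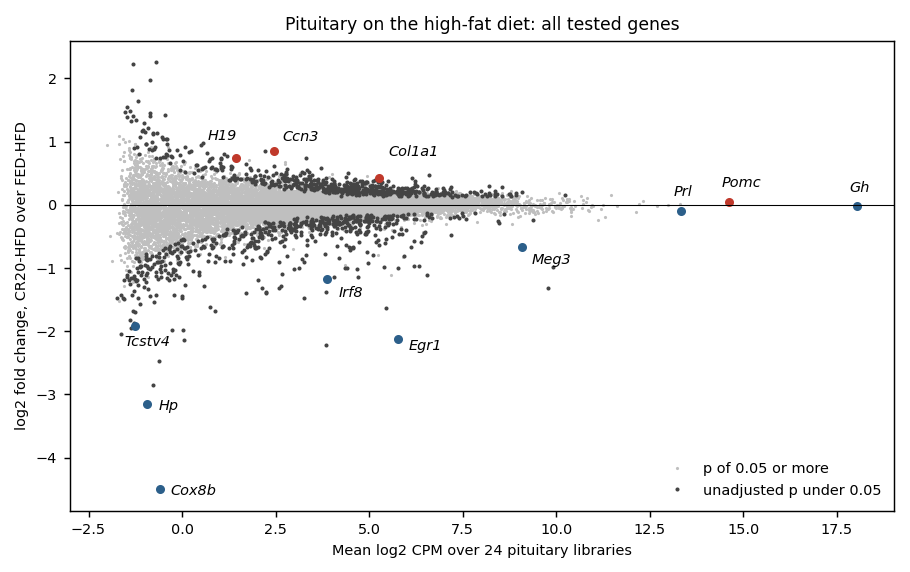
Log2FC of CR20-HFD against FED-HFD for the 16657 tested pituitary genes, by mean level, with the 1127 genes at an unadjusted p under 0.05 in dark grey. Labelled genes are red (higher) or blue (lower) by sign, whether or not they were at that threshold. No gene passed an adjusted p of 0.05, and the median log2FC was 0.0025.

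The groups did not overlap for 45 of the 16657 genes (0.27%), where every CR20-HFD mouse lay above (30 genes, 0.18%) or below (15 genes, 0.0901%) every FED-HFD mouse. In the exact permutation test, complete separation has a chance of 0.00216 for a gene without a difference, and the share found was near that. Of the 45 genes, 40 encode proteins. Besides those described below they include Ece1, an enzyme that activates endothelin (log2FC 0.19), Ntrk2, the receptor for brain-derived neurotrophic factor (0.16), Cd34, a surface protein of vessels and progenitors (0.36), and Gpat3, an enzyme of triglyceride synthesis (-0.34), which were chosen after their values were seen. Leaving out any of the 12 mice gave more such genes, from 69 of 16791 (without FED-HFD mouse 13) to 142 of 16784 (without FED-HFD mouse 40). With fewer mice, complete separation is also more likely for a gene without a difference. These counts therefore cannot be set against the 0.00216 of 12 mice, and why they differ between the mice left out was not tested.

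The list of pericyte and fibroblast markers held several genes with higher values. Col1a1 and Col1a2, which together form type I collagen, Col3a1, which forms type III collagen, and Pdgfrb, the platelet-derived growth factor receptor of pericytes, were each higher in CR20-HFD at an unadjusted p under 0.05. They are 4 of the 7 tested pericyte and fibroblast markers (57.1%, against 6.77% of all tested genes). The median log2FC of the 7 was 0.23 (0.0025 over all tested genes). No marker of this list was lower at that threshold, and Rgs5 (-0.14), Dcn (0.11) and Lum (-0.01) lay nearer to 0.

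Col1a1 (ENSMUSG00000001506, chromosome 11, GRCm39 positions 94827050 to 94843868) stood at a log2 CPM of 5.20, 5.41 and 5.55 in CR20-HFD (lowest, median and highest mouse) and 4.85, 4.96 and 5.12 in FED-HFD, and its log2FC was 0.43 (95% interval 0.24 to 0.62). Every CR20-HFD mouse lay above every FED-HFD mouse, and the log2FC was between 0.39 and 0.46 without any mouse. On the control diet the median level of Col1a1 was 5.34 in CR20-CTRL and 5.42 in FED-CTRL (log2FC -0.05), so the FED-HFD mice had the lowest median of the 4 groups. The interaction, the log2FC on HFD minus that on CTRL, was 0.48 for this gene (standard error 0.13, adjusted p = 0.314).

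Col1a2 ranged over 7.99, 8.28 and 8.52 in CR20-HFD and 7.74, 7.98 and 8.21 in FED-HFD (log2FC 0.30, adjusted p = 0.549). Col3a1 stood at 4.08, 4.48 and 4.65 against 3.58, 4.22 and 4.26 (log2FC 0.37, adjusted p = 0.599). For both genes the ranges overlapped. Pdgfrb had a log2FC of 0.23 (adjusted p = 0.663). Summed over the 7 markers, of which Col1a2 is the most abundant per kilobase, the level was 484, 541 and 625 CPM in CR20-HFD and 414, 455 and 517 CPM in FED-HFD, and 4 of the 6 CR20-HFD mice lay above the highest FED-HFD mouse. On the control diet the summed level had a median of 589 CPM in CR20-CTRL and 543 CPM in FED-CTRL. There 1 of the 7 markers was higher and 0 lower at an unadjusted p under 0.05, with a median log2FC of 0.12. In that comparison 10.7% of all tested genes were higher and 6.68% lower. In whole tissue, more cells of a type and more RNA per cell cannot be told apart.

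Among the other genes nearest to the threshold on the higher side, Ccn3, a secreted matrix-associated protein, stood at 2.58, 2.91 and 3.39 in CR20-HFD and 1.39, 2.07 and 2.87 in FED-HFD (log2FC 0.85, standard error 0.22, adjusted p = 0.388). The groups overlapped, and the log2FC of Ccn3 on the control diet was 0.52. Fgfr1, a fibroblast growth factor receptor, had 6.06, 6.26 and 6.35 against 5.88, 5.99 and 6.06 (log2FC 0.24, standard error 0.06, adjusted p = 0.388). The lowest CR20-HFD mouse was level with the highest FED-HFD mouse to 2 decimals. Cpxm1, a secreted carboxypeptidase-like protein, was higher by a log2FC of 0.37 (adjusted p = 0.388).

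The remaining leading genes on that side have varied roles. Lingo1 (ENSMUSG00000049556, chromosome 9, from 56523065 to 56703752) had 3.24, 3.50 and 3.60 in CR20-HFD and 2.74, 2.97 and 3.17 in FED-HFD, with a log2FC of 0.51, and its groups did not overlap. Dhx8, an RNA helicase of pre-mRNA splicing, had 5.49, 5.57 and 5.63 against 5.05, 5.23 and 5.40 (log2FC 0.32, standard error 0.07, adjusted p = 0.388), again without overlap. Adcy2, an adenylyl cyclase that makes cyclic AMP, stood at 4.21, 4.68 and 4.99 against 4.02, 4.12 and 4.41 (log2FC 0.50, standard error 0.12, adjusted p = 0.388). For Adcy2, which overlaps Cfap90 on the opposite strand, 5 of 6 CR20-HFD mice lay above the highest FED-HFD mouse. Prkce, a protein kinase C (0.27), Mical2, an oxidase that acts on actin (0.30), and Lhfpl7, a membrane protein (0.47), completed the 10 protein-coding genes with the smallest p on this side.

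Of the non-overlapping genes with a mean log2 CPM of at least 1, the largest log2FC values on the higher side were those of Zfp582, H19 and Tmem200c. H19 (ENSMUSG00000000031, chromosome 7, from 142129262 to 142133957), an imprinted noncoding RNA expressed from the maternal allele, had 1.37, 1.69 and 2.32 in CR20-HFD and 0.47, 1.02 and 1.36 in FED-HFD (log2FC 0.75, standard error 0.18, adjusted p = 0.388). The lowest CR20-HFD mouse and the highest FED-HFD mouse were close to each other. Zfp582, a zinc finger protein, had 1.04, 1.52 and 1.67 against -0.39, 0.84 and 1.04 (log2FC 0.78, adjusted p = 0.388), where FED-HFD mouse 13 was far below its group. Tmem200c, a membrane protein, had 1.44, 1.52 and 1.67 against 0.46, 1.03 and 1.32 (log2FC 0.60, adjusted p = 0.621).

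**Figure D2:**
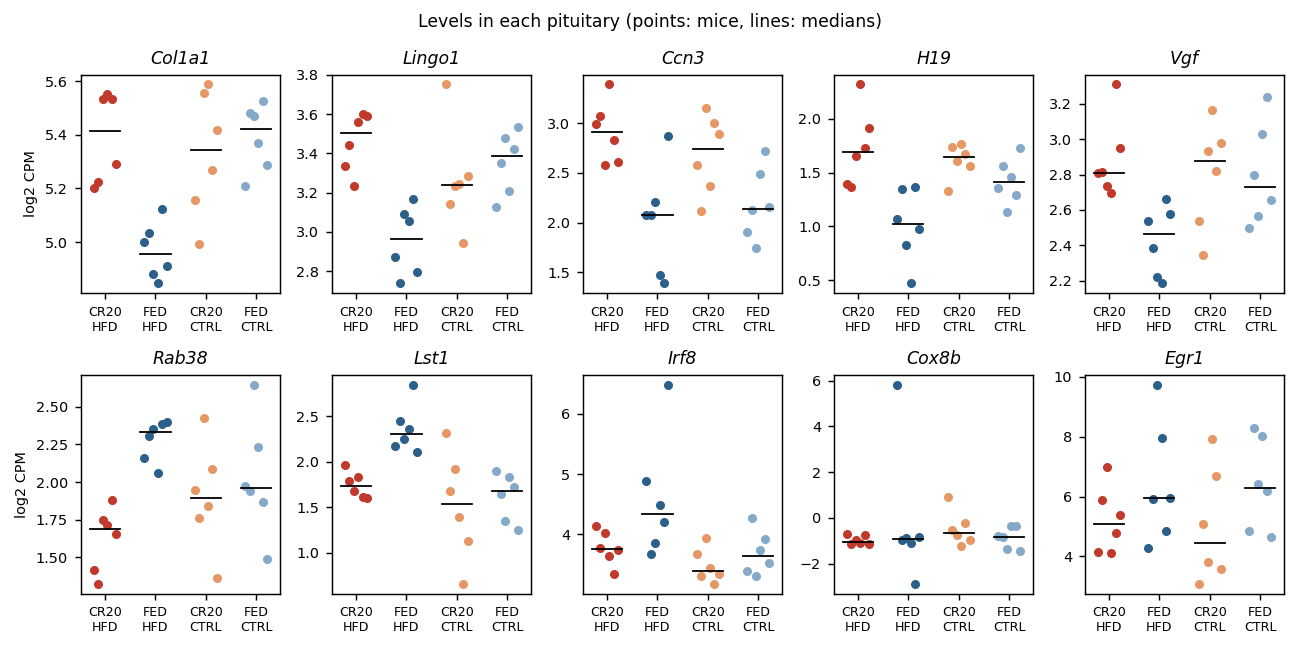
Log2 CPM of 10 pituitary genes in each of the 24 mice, by group. Col1a1 (log2FC 0.43 on the high-fat diet), Lingo1 (0.51), H19 (0.75), Vgf (0.47), Rab38 (-0.66) and Lst1 (-0.65) did not overlap between CR20-HFD and FED-HFD, whereas Cox8b (-4.50) rested on FED-HFD mouse 10.

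In the main test the interferon-stimulated genes had the lowest median of the 19 pathway lists. All 19 tested interferon-stimulated genes (of 20, Mx1 not being tested) had a negative log2FC, and their median was -0.51. At an unadjusted p under 0.05 were 12 of them (63.2%, against 6.77% of all tested genes). They include Bst2, which holds budding viruses at the cell surface, and the guanylate-binding proteins Gbp2 and Gbp3. FED-HFD mouse 40 carried much of this: without it 2 of the 19, Bst2 among them, were at that threshold, the median was -0.27 and 17 were negative. Voom with quality weights also gave 2 of the 19, with a median of -0.22, and there the immediate early genes had a lower median (-0.27).

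Bst2 stood at 4.33, 4.66 and 5.02 in CR20-HFD and 4.38, 5.32 and 5.73 in FED-HFD (log2FC -0.58, standard error 0.18, adjusted p = 0.501), and -0.46 without mouse 40. The groups overlapped, since the lowest FED-HFD mouse lay near the lowest CR20-HFD mouse. The log2FC of Gbp3 and Gbp2 also moved toward 0 without mouse 40, Gbp3 from -0.68 (adjusted p = 0.530) to -0.34 and Gbp2 from -1.00 (adjusted p = 0.547) to -0.44. The mean log2 CPM of the 19 genes was 2.95, 3.43 and 3.81 in CR20-HFD and 3.04, 3.86 and 4.83 in FED-HFD, so the groups overlapped widely. On the control diet 1 of the 19 was higher and 0 lower at an unadjusted p under 0.05, and their median log2FC was -0.18. In that comparison 10.7% of all tested genes were higher and 6.68% lower.

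Irf8 had 3.33, 3.75 and 4.14 in CR20-HFD and 3.68, 4.34 and 6.48 in FED-HFD, where the highest value is that of mouse 40, and its log2FC of -1.18 was -0.49 without that mouse. Serpina3g, a serine protease inhibitor from a family of near-identical genes, had a log2FC of -1.39 (standard error 0.34, adjusted p = 0.388), and -0.90 without mouse 40. Slfn2, a Schlafen protein of immune cells, stood at 1.39, 1.89 and 2.05 against 1.92, 2.52 and 3.45 (log2FC -0.87, standard error 0.22, adjusted p = 0.388; -0.63 without mouse 40). Klrk1, an activating receptor of natural killer cells, had a log2FC of -1.42 (standard error 0.38, adjusted p = 0.388), and -1.10 without mouse 40. Oas1b, an interferon-induced protein of the oligoadenylate synthetase family, had 0.97, 1.12 and 1.95 against 1.29, 2.26 and 2.46 (log2FC -0.83, standard error 0.19, adjusted p = 0.388), and this was nearly the same without mouse 40, at -0.81.

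Further genes on the lower side did not rest on mouse 40. Rab38 (ENSMUSG00000030559, chromosome 7, from 88079466 to 88144036) had 1.32, 1.68 and 1.88 in CR20-HFD and 2.06, 2.33 and 2.40 in FED-HFD, without overlap. Lst1, a gene of leukocytes, had 1.60, 1.73 and 1.97 against 2.11, 2.30 and 2.84 (log2FC -0.65, standard error 0.20, adjusted p = 0.499), also without overlap. Il15ra, the receptor chain that presents interleukin 15, had 2.15, 2.21 and 2.52 against 2.56, 2.78 and 3.02 (log2FC -0.52, adjusted p = 0.572). For these 3 genes each CR20-HFD mouse lay below each FED-HFD mouse. Idnk, a gluconate kinase, had 5.25, 5.29 and 5.38 against 5.32, 5.68 and 5.81 (log2FC -0.35, adjusted p = 0.388). Tcstv4, from a family of near-identical genes, had low levels of -2.79, -2.03 and -0.84 against -1.10, -0.09 and 0.26 (log2FC -1.91, standard error 0.44, adjusted p = 0.388).

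Macrophages and lymphocytes were followed by marker lists of their own. Of 11 tested macrophage markers, Aif1, a calcium-binding protein of macrophages and microglia, was lower (log2FC -0.55) and 0 were higher at an unadjusted p under 0.05 (9.09%, near the 6.77% of all tested genes), with a median of -0.07. Their summed level was 273, 306 and 372 CPM in CR20-HFD and 264, 342 and 423 CPM in FED-HFD, mouse 40 being highest and C1qa, a chain of complement C1q, the most abundant per kilobase. The number of these markers at that threshold moved by over 1.5 times without CR20-HFD mouse 6, 7 or 31 or FED-HFD mouse 10, 11 or 12, between 2 and 4. Of 8 lymphocyte markers 4 were tested, with Cd4 higher (0.41) and Nkg7 lower (-0.61), which is 50% against 6.77% of all tested genes. The summed level of the 8 markers was 10.9, 11.7 and 17.5 CPM against 10.3, 12.0 and 13.4 CPM. Cd79a, of the B cell receptor, was the most abundant of them, and Cd3e, Cd8a and Ms4a1 were among those too low to be tested. The number higher was 0 without FED-HFD mouse 23 or 40 or CR20-HFD mouse 31 or 32, and the number lower was 0 without FED-HFD mouse 10, 13 or 40 or CR20-HFD mouse 7, 32, 45 or 46. The part of immune cells in the interferon-stimulated genes was not tested.

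The values of Cox8b and Hp rested on FED-HFD mouse 10. Cox8b, a subunit of cytochrome c oxidase in brown fat and muscle, stood at -1.12, -1.03 and -0.72 in CR20-HFD and -2.87, -0.92 and 5.82 in FED-HFD, and its log2FC of -4.50 (standard error 1.04, adjusted p = 0.388) was 0.26 without mouse 10. Hp, which encodes haptoglobin, had -2.79, -1.45 and 0.40 against -1.30, -0.71 and 4.51, and its log2FC of -3.16 (standard error 0.83, adjusted p = 0.388) was -0.17 without mouse 10. The 4 adipocyte markers, of which Adipoq (adiponectin) is the most abundant per kilobase, were too low to be tested, and their summed level in CR20-HFD was 0, 0.103 and 0.449 CPM.

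The counts of the lists of fat metabolism rested on the same mouse. Of 19 tested genes of fatty acid oxidation, 1 was higher and 2 were lower at an unadjusted p under 0.05, and 0 in either direction without mouse 10. With all mice this is 15.8%, against 6.77% of all tested genes, and the median log2FC was 0.02. The lower ones were Fabp3, a fatty acid-binding protein (-0.91, and -0.29 without mouse 10), and Cd36, a fatty acid transporter (-0.94, and -0.36 without it), while the carnitine carrier Slc25a20 was not at that threshold (-0.14). Of 16 lipogenesis genes 0 were higher and 3 lower (18.8%, again against 6.77%), with a median of 0.0055, and 0 of them without mouse 10. Those were Dgat2, which completes triglyceride synthesis (-0.72, and -0.30 without mouse 10), the lipogenic regulator Thrsp (-0.37, and -0.05 without it) and the fatty acid elongase Elovl6 (-0.30), with Dgat1 at -0.21. The number of lipogenesis genes lower was 1 without CR20-HFD mouse 46, and the number of oxidation genes higher was 0 without FED-HFD mouse 13 or 40 or CR20-HFD mouse 31, 32 or 46 and 2 without CR20-HFD mouse 7.

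Of 35 tested nuclear genes of the respiratory chain, 0 were higher and 2 lower at an unadjusted p under 0.05 (5.71%, against 6.77% of all tested genes), 29 were negative and the median log2FC was -0.09. Without mouse 10 it was 0, with 25 negative and a median of -0.04, while it was 1 without CR20-HFD mouse 6, 7 or 31 and 4 to 7 without FED-HFD mouse 11, 12 or 23 or CR20-HFD mouse 45. The lowest p-values were those of Ndufb9, of complex I (-0.25, and -0.14 without mouse 10), Atp5po, of the ATP synthase (-0.21), Sdhb, of complex II (-0.17), and Cyc1, of complex III (-0.19). On the control diet 15 of the 35 were lower and 0 higher, with a median of -0.16, in a comparison where 6.68% of all tested genes were lower at that threshold. The 10 tested of 13 mitochondrial messenger RNAs were all negative with 0 at that threshold (median -0.11), among them mt-Nd1 (-0.23), mt-Cytb (-0.12), mt-Nd6 (-0.14) and mt-Co2 (-0.22), but voom with quality weights gave a median of 0.06 with 7 positive.

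The count of immediate early genes rested on FED-HFD mouse 12. Of 19 tested, 0 were higher and 7 lower at an unadjusted p under 0.05 (36.8%, against 6.77% of all tested genes). The median log2FC was -0.22. Without mouse 12 the numbers were 1 higher and 0 lower, with a median of 0.01. Egr1, a transcription factor induced by stimulation, had 4.12, 5.09 and 6.98 in CR20-HFD and 4.27, 5.93 and 9.73 in FED-HFD (log2FC -2.12, standard error 0.83, adjusted p = 0.628), and -0.78 without mouse 12. Junb, a subunit of the AP-1 factor, had a log2FC of -1.64, and -0.17 without mouse 12. Npas4, a neuronal activity-dependent factor, had -1.40, and -0.58 without that mouse, and Ier2 had -0.92, and -0.09 without it. The sign of Fos, another AP-1 subunit, turned from -2.21 to 1.02 when mouse 12 was left out.

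Red blood cell genes followed FED-HFD mouse 13. Of 6 markers 5 were tested. Of these 0 were higher and 2 lower at an unadjusted p under 0.05 (40%, against 6.77% of all tested genes). The median log2FC was -0.82. Without mouse 13 the number was 0 and the median 0.04. Hba-a1, an alpha globin from a family of near-identical genes and the most abundant marker per kilobase, had a log2FC of -1.31, and 0.07 without mouse 13. The summed level was 1084, 1402 and 2684 CPM in CR20-HFD and 1102, 1944 and 13926 CPM in FED-HFD, so the other mice overlapped. The number lower was 4 without CR20-HFD mouse 6 or FED-HFD mouse 10, 11, 12 or 40, and 1 without CR20-HFD mouse 7, 31, 32 or 45.

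**Figure D3:**
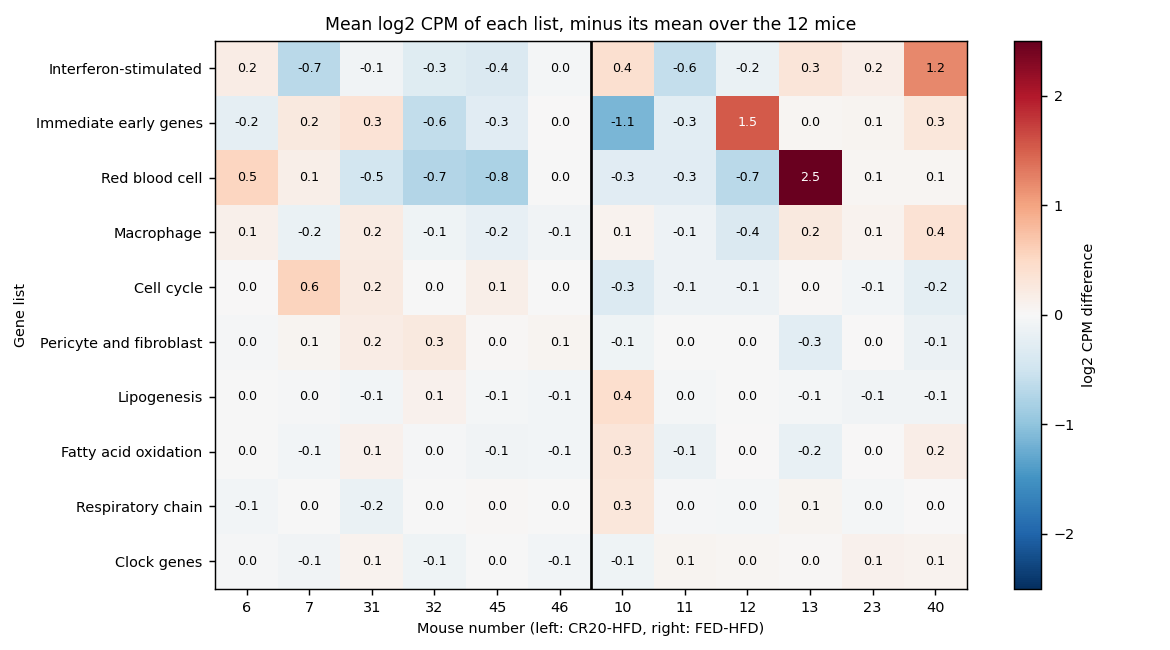
Mean log2 CPM of 10 gene lists in each of the 12 mice, as a difference from the mean of the list over the 12. Mouse 40 is highest for the interferon-stimulated genes (mean log2 CPM 4.83), mouse 12 for the immediate early genes (5.26), mouse 13 for the red blood cell markers and mouse 10 for the lipogenesis genes.

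The hormone genes themselves did not pass the test. Gh had 17.79, 18.08 and 18.22 in CR20-HFD and 17.64, 18.09 and 18.49 in FED-HFD, with a log2FC of -0.02 (95% interval -0.28 to 0.23, adjusted p = 0.991). Prl stood at 12.65, 13.29 and 13.99 against 13.20, 13.38 and 13.83 (log2FC -0.09, 95% interval -0.43 to 0.25, adjusted p = 0.957), and Pomc at 14.28, 14.63 and 14.76 against 14.36, 14.51 and 14.69 (log2FC 0.05, 95% interval -0.16 to 0.26, adjusted p = 0.961). The CR20-HFD values lay around or within the FED-HFD values for each of these hormones. Cga, the alpha subunit shared by thyrotropin and the gonadotropins, had the smallest p of the list, with 11.14, 11.27 and 11.51 against 11.21, 11.46 and 11.69 (log2FC -0.19, 95% interval -0.44 to 0.06, adjusted p = 0.807). The log2FC was -0.09 for Tshb (the thyrotropin beta subunit, adjusted p = 0.930) and -0.11 for Fshb (adjusted p = 0.934). Without a mouse Tshb lay between -0.13 and -0.03 and Fshb between -0.20 and -0.04. With a covariate for the range of animal numbers Fshb was at -0.21. Of the 7 hormone genes, which include the identifier of Lhb that could not be read (log2FC -0.15), 0 were at an unadjusted p under 0.05 and the median log2FC was -0.09.

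Receptors gave 0 genes at that threshold by edgeR. By voom with or without quality weights 1 receptor of hypothalamic signals was higher, and with a covariate for the range of animal numbers Sstr1 was at the threshold (-0.33). For the 17 receptors of hypothalamic signals the median log2FC was 0.0075, and the smallest p-values belonged to Ghsr, the ghrelin receptor (0.49), the somatostatin receptor Sstr1 (-0.27), the oxytocin receptor Oxtr (-0.51) and Adcyap1r1, the receptor of the peptide PACAP (0.08). Ghsr stood at 0.48, 1.38 and 1.73 in CR20-HFD and -0.24, 0.52 and 1.96 in FED-HFD (standard error 0.31, adjusted p = 0.805), and its groups overlapped. The log2FC of Ghsr was 0.89 without FED-HFD mouse 23, 0.33 without FED-HFD mouse 10, 0.28 with a covariate for the range of animal numbers and 0.88 by voom with quality weights. Ghrhr had 6.80, 7.56 and 7.93 against 7.30, 7.61 and 7.83 (log2FC -0.0013, adjusted p = 0.998), and 0.11 without CR20-HFD mouse 7. For the 20 tested of 21 receptors and feedback factors of peripheral hormones the median was 0.04, with the adiponectin receptors Adipor2 (0.12) and Adipor1 (-0.08), the incretin receptor Glp1r (0.30) and the glucocorticoid receptor Nr3c1 (0.19) nearest to the threshold.

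Transcription factors of the pituitary lineages were 3 higher and 1 lower at an unadjusted p under 0.05, of 22 tested of 23. This is 18.2%, against 6.77% of all tested genes, and their median log2FC was 0.08. Nr5a1, the factor of gonadotropes, had 6.36, 6.59 and 6.74 in CR20-HFD and 6.12, 6.32 and 6.50 in FED-HFD (log2FC 0.27, adjusted p = 0.491), with overlap, and -0.27 on the control diet. This gene overlaps Nr5a1os on the opposite strand. Neurod1, a factor of corticotropes (0.73, adjusted p = 0.530), and Lhx4, a factor of early pituitary growth (0.61, adjusted p = 0.663), were the others on the higher side, and Foxl2, a factor of gonadotropes, the lower one (-0.30, adjusted p = 0.731). The higher number was 5 without FED-HFD mouse 10 or CR20-HFD mouse 6 and 2 without FED-HFD mouse 23 or CR20-HFD mouse 45, and Foxl2 left the threshold without FED-HFD mouse 10, 11 or 13 or CR20-HFD mouse 6, 7, 45 or 46.

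Of 24 genes of secretory granules and prohormone processing, 2 were higher and 0 lower (8.33%, near the 6.77% of all tested genes; median log2FC 0.03). Vgf, a granule protein that is cut into peptides, had 2.70, 2.81 and 3.31 in CR20-HFD and 2.18, 2.46 and 2.66 in FED-HFD (log2FC 0.47, standard error 0.15, adjusted p = 0.530), and its groups did not overlap. The other was Stx1a, a protein of vesicle fusion (0.24), while Ptprn2, a granule membrane protein (0.18), and the prohormone convertase Pcsk2 (0.19) were next. The number higher was 1 without FED-HFD mouse 10, 12 or 13 or CR20-HFD mouse 45 or 46.

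Among 20 genes of growth hormone, leptin and insulin-like growth factor (IGF) signalling, 1 was higher and 1 lower (10%, near the 6.77% of all tested genes; median log2FC 0.05). Igfbp6, which binds IGF2, had 3.12, 3.63 and 3.95 in CR20-HFD and 2.99, 3.20 and 3.46 in FED-HFD (log2FC 0.41, adjusted p = 0.502). Socs1, which dampens cytokine signals, had a log2FC of -0.84 (adjusted p = 0.502), and -0.48 without FED-HFD mouse 40, and the transcription factors Stat3 (-0.14) and Stat5b (0.10) were next. The number lower was 2 without FED-HFD mouse 11, 12 or 13 or CR20-HFD mouse 31 or 32, and the number higher was 2 without FED-HFD mouse 40.

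Cyclic AMP signalling genes were 1 higher and 0 lower of 20 (5%, near the 6.77% of all tested genes; median log2FC 0.05), the phosphodiesterase Pde4b (0.28), which was no longer at the threshold without FED-HFD mouse 10 or 11 or CR20-HFD mouse 45. The phosphodiesterase Pde10a (0.26), the small GTPase Rasd1 (-0.40, and 0.08 without FED-HFD mouse 12) and the factor Creb3l2 (0.10) followed. Of 15 glucocorticoid-responsive genes 1 was higher and 0 lower (6.67%, again near that share; median 0.06; 2 higher without FED-HFD mouse 10). It was Ddit4, an inhibitor of the mTOR kinase, with 5.20, 5.41 and 5.58 in CR20-HFD and 5.01, 5.21 and 5.28 in FED-HFD (log2FC 0.22, adjusted p = 0.597). Next in this list came the cell cycle inhibitor Cdkn1a (0.24), the sulfotransferase Sult1a1 (-0.17) and the transcription factor Klf9 (0.17).

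Cell cycle genes were mostly above 0. Of 22 tested of 23, 4 were higher and 0 lower at an unadjusted p under 0.05, 18 were positive and the median log2FC was 0.31. Mcm2, of the replication helicase, had 4.37, 4.57 and 4.78 in CR20-HFD and 4.03, 4.26 and 4.54 in FED-HFD (log2FC 0.28, adjusted p = 0.530). Ccnb1, the mitotic cyclin B1, had low levels of -0.41, -0.29 and 0.35 against -2.14, -0.96 and -0.59 (log2FC 1.00, standard error 0.38, adjusted p = 0.598), without overlap. Mki67, a marker of dividing cells, had a log2FC of 0.69 (0.41 without CR20-HFD mouse 7), and Ccna2, cyclin A2, 0.56. Without CR20-HFD mouse 7 the number was 2 and the median 0.18, and it was 6 without FED-HFD mouse 40. On the control diet 8 of the 22 were higher and 1 lower (median 0.18), in a comparison where 10.7% of all tested genes were higher and 6.68% lower, against 3.33% and 3.44% on HFD.

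The circadian clock genes were 2 higher and 3 lower of 18 (27.8%, against 6.77% of all tested genes), with a median log2FC of -0.08. Npas2 (0.81) and Bmal1 (0.48) encode activators of the clock and were the higher ones, Bmal1 with 3.26, 3.66 and 4.18 in CR20-HFD and 3.02, 3.26 and 3.63 in FED-HFD (adjusted p = 0.714). Bhlhe41 (-0.32), Per3 (-0.48) and Per2 (-0.41) encode repressors and were the lower ones, Per3 with 4.51, 4.78 and 5.13 against 4.95, 5.32 and 5.57 (adjusted p = 0.604). The groups overlapped for both Bmal1 and Per3. With a covariate for the range of animal numbers Per2 was not at the threshold (-0.26) and the numbers were 1 and 2. The hour at which the tissue was taken is not given by mouse in the sources used here. The number higher was 0 without FED-HFD mouse 11 or 23 or CR20-HFD mouse 45 or 46 and 1 without FED-HFD mouse 10 or 13, while the number lower was 6 without CR20-HFD mouse 31.

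Imprinted genes were 3 higher and 2 lower of 31 tested of 37 (16.1%, against 6.77% of all tested genes), with a median log2FC of -0.0020. Besides H19, the higher ones were Igf2r, which clears IGF2 and is expressed from the maternal allele, with 5.07, 5.14 and 5.41 in CR20-HFD and 4.60, 4.84 and 5.09 in FED-HFD (log2FC 0.31, adjusted p = 0.524), and Sgce, a sarcoglycan expressed from the paternal allele (0.15). Meg3, a noncoding RNA of the maternal allele, had 7.78, 8.60 and 9.42 against 8.62, 9.46 and 9.88 (log2FC -0.67, standard error 0.30, adjusted p = 0.710), with CR20-HFD mice 6 and 7 high within their group. Ndn, expressed from the paternal allele, had a log2FC of -0.13 (adjusted p = 0.713). The number lower was 0 without CR20-HFD mouse 31 or 46, 1 without FED-HFD mouse 10 or 23 or CR20-HFD mouse 32 or 45, and 4 without FED-HFD mouse 40 or CR20-HFD mouse 7.

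Of 22 genes of the unfolded protein response, 1 was higher and 2 were lower (13.6%, against 6.77% of all tested genes). Their median log2FC was 0.09. The chaperone Hyou1 had a log2FC of 0.28, the pseudokinase Trib3 -0.35 and the transcription factor Ddit3 -0.18, with Syvn1, a ubiquitin ligase of the endoplasmic reticulum, next (0.14). With a covariate for the range of animal numbers Hyou1 was at 0.17, and Trib3 (-0.30) and Ddit3 (-0.17) were not at the threshold. Hyou1 left the threshold without FED-HFD mouse 12 or 13 or CR20-HFD mouse 32 or 46, and the lower number was 0 without FED-HFD mouse 10, 12 or 40 or CR20-HFD mouse 7 and 1 without CR20-HFD mouse 6, 32, 45 or 46. The higher number was 2 without FED-HFD mouse 10, 11 or 40. The 20 tested of 21 sterol genes driven by SREBP2 had 0 at that threshold, but 17 were positive and the median was 0.10. The sterol enzymes Cyp51 (0.45), Fdft1 (0.10) and Sqle (0.18) were among those with the smallest p-values. Counted once each, the 372 tested genes of the 19 pathway lists were 19 higher and 35 lower (14.5%, against 6.77% of all tested genes). Their median was 0.0088. The lower ones include 12 interferon-stimulated and 7 immediate early genes, lists whose counts rested largely on a single FED-HFD mouse each. The genes of fatty acid oxidation and lipogenesis did so too. The pooled share without those mice is not given here, and the lists were chosen with earlier results of these data known.

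Other settings moved the number of list genes at an unadjusted p under 0.05 as well. Over all genes that number was 1127 of 16657 in the main test and 1932 of 16657 by voom with quality weights. It was 1051 by voom without weights, 1139 by DESeq2, 1093 with robust estimation and 996 with the covariate described next. List counts by voom with quality weights thus stand against a larger share over all genes. With a covariate for the range of animal numbers, which differs between the groups, Foxl2 (-0.21), Stx1a (0.21), Pde4b (0.20), Thrsp (-0.29) and Elovl6 (-0.18) were not at the threshold either, and the endothelial and red blood cell markers and the higher side of fatty acid oxidation gave 0. There the secretory granule genes were 1 higher and 1 lower, the imprinted genes 2 and 2 and the unfolded protein response 2 and 1. Among genes not at the threshold in the main test, the covariate moved Ptprn2 from 0.18 to 0.09 and Sqle from 0.18 to 0.11. It also moved Fdft1 from 0.10 to 0.07 and Dgat1 from -0.21 to -0.13. By voom with quality weights the numbers higher and lower were 4 and 1 for the secretory granule genes, 2 and 0 for the glucocorticoid-responsive genes, 2 and 5 for the clock genes, 3 and 4 for the imprinted genes and 4 and 0 for the sterol genes. They were 2 and 3 for lipogenesis, 2 and 1 for the endothelial markers and 1 and 0 for the macrophage markers, and 0 in either direction for fatty acid oxidation and for the lymphocyte, red blood cell, and stem and folliculostellate markers. Lists with 0 in the main test gave 1 higher by voom with quality weights for the receptors of hypothalamic signals, the somatotrope markers and the pituicyte markers, 1 lower for the skeletal muscle and 2 for the hepatocyte markers, and 1 higher with the covariate for the nerve and Schwann cell markers. Voom without weights gave 0 higher and 3 lower for the clock genes, 1 lower for lipogenesis and for the respiratory chain, 0 for the red blood cell markers and 2 lower for the immediate early genes, for which DESeq2 gave 4. Voom without weights also gave 0 lower for the lineage factors and for the gonadotrope and lymphocyte markers, 1 higher for the secretory granule genes, 3 lower for the imprinted genes, 2 lower for the growth hormone and IGF list and 1 lower for the hepatocyte markers. DESeq2 gave 1 higher and 2 lower for the clock genes, as did edgeR with robust estimation, and both gave 1 lower for the imprinted genes and for the red blood cell markers.

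Over all genes, 2332 of 31862 were at an unadjusted p under 0.05 with no filter and 1115 of 15796 in the fit of only the 2 groups. The number lower with no filter was 6 for the clock genes, 3 for the macrophage, 4 for the red blood cell and 1 for the hepatocyte markers, 3 for the imprinted genes and for the respiratory chain, 1 for the unfolded protein response and 1 for the mitochondrial messenger RNAs. The number higher was 1 there for the sterol genes and for the nerve and Schwann cell markers and 2 for the imprinted genes. In the fit of only the 2 groups the clock genes gave 6 lower, the red blood cell markers and fatty acid oxidation 3 lower (the latter 0 higher), the hormones 1 lower and the lymphocyte markers 0 lower. The number higher was 2 for the sterol genes, the unfolded protein response and the imprinted genes and 1 for the secretory granule genes. The growth hormone and IGF list gave 2 lower by DESeq2, with DESeq2 size factors, with the covariate and over 1 CPM. Without a mouse, each pathway or marker list with 0 gave at most 2.

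**Figure D4:**
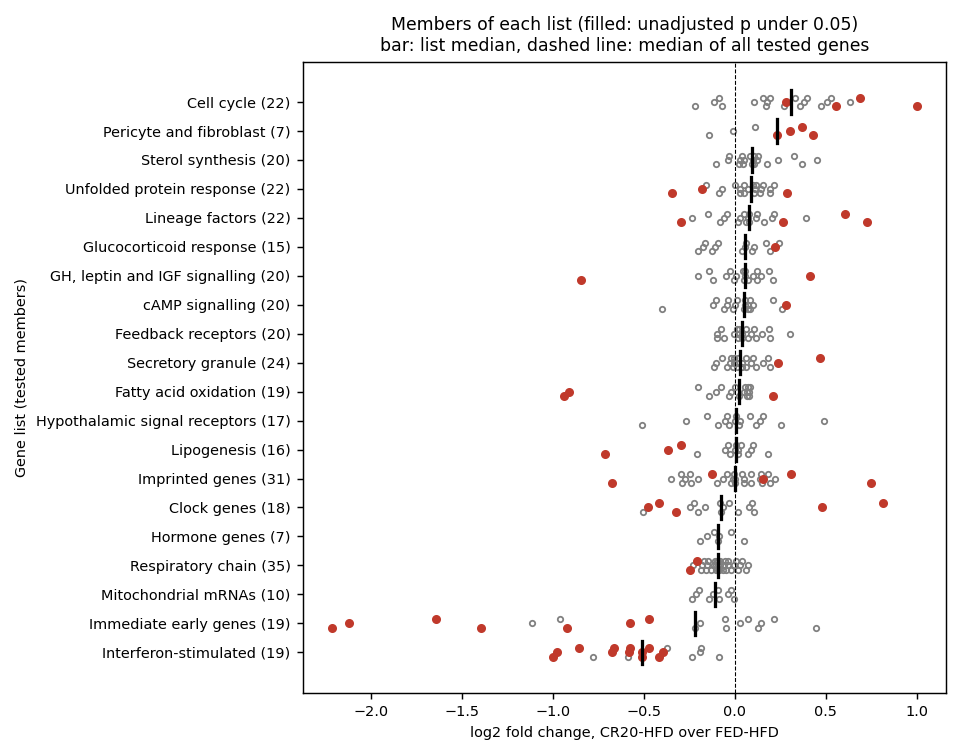
Log2FC of the tested genes of the 19 pathway lists and of the pericyte and fibroblast markers, CR20-HFD against FED-HFD, with the genes at an unadjusted p under 0.05 filled. The median was -0.51 for the interferon-stimulated genes, 0.31 for the cell cycle genes, 0.23 for the pericyte and fibroblast markers and 0.0025 over all tested genes.

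Markers of the hormone cells gave few genes at an unadjusted p under 0.05. Somatotrope markers (0 of 4, most abundant per kilobase Gh) summed to 229275, 279458 and 308980 CPM in CR20-HFD and 207474, 283096 and 371835 CPM in FED-HFD. Lactotrope markers (0 of 3, Prl) summed to 6744, 10403 and 16647 against 9729, 11033 and 14901 CPM. Corticotrope markers (0 of 4, Pomc) and melanotrope markers (0 of 4, Pomc) had medians of 25522 against 23475 CPM and 25914 against 23762 CPM, and share Pomc. Thyrotrope markers (0 of 3, Tshb) had medians of 222 against 217 CPM. Gonadotrope markers (Nr5a1 higher and Foxl2 lower of 5, 40% against 6.77% of all tested genes) had medians of 794 against 909 CPM with overlap. Fshb was the most abundant of them. The stem and folliculostellate markers (most abundant Cyp2f2) were 0 higher and 1 lower of 6 (16.7%, against the same 6.77%). The lower one was Aldh1a1 (-0.27), which left the threshold without FED-HFD mouse 13, 23 or 40 or CR20-HFD mouse 7, 32 or 45.

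A dissected pituitary could hold other tissues. Endothelial markers were 1 higher and 1 lower of 7 (28.6%, against 6.77% of all tested genes). The higher one was Pecam1, a junction protein (0.22), and the lower one Egfl7, a secreted vessel protein (-0.20). The medians were 586 against 575 CPM, with Plvap as the most abundant. Pecam1 left the threshold without FED-HFD mouse 13 or CR20-HFD mouse 32, and Egfl7 without FED-HFD mouse 10, 13 or 40 or CR20-HFD mouse 7, 45 or 46. Choroid plexus markers were 1 higher (Kl, 0.40, but not without FED-HFD mouse 10) and 0 lower of 3 (33.3%, again against 6.77%). Their medians were 68.1 against 61.4 CPM, with Folr1 as the most abundant. Nerve and Schwann cell markers gave 0 of 7 (85.5 against 84.8 CPM), with CR20-HFD mouse 6 at 134 CPM. Pituicyte and posterior lobe markers gave 0 of 6 (39.5 against 38.0 CPM, Slc1a3). The hypothalamic neuron list gave 0 of 2 tested (12.4 against 12.6 CPM, Avp), with Crh, Trh, Gnrh1 and Ghrh too low to be tested.

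Markers of muscle, bone and liver had low levels. Skeletal muscle markers gave 0 of 4 tested (6.30 against 7.70 CPM, Mylpf, median log2FC -0.32), bone and cartilage markers 0 of 2 (3.26 against 2.94 CPM, Col2a1, with Bglap and Ibsp at no more than 3 counts in any of the 24 libraries), and hepatocyte markers 0 of 2 (0.641 against 1.16 CPM, Apoa1, median log2FC -0.89). Voom with quality weights put 1 of the 4 muscle markers and both hepatocyte markers lower at an unadjusted p under 0.05, and DESeq2 1 of the 2 hepatocyte markers. The hepatocyte genes Serpina1a and Cyp2e1 were too low to be tested. Counted once each, the 88 tested genes of the 20 marker lists were 8 higher and 7 lower (17%, against 6.77% of all tested genes). The lower ones include the red blood cell markers that rested on a single FED-HFD mouse. These lists too were chosen with earlier results of these data known.

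The same maternal contrast on the control diet gave values nearer to 0 for most of the leading genes. The leading genes were chosen by their small p on HFD, so a smaller value on CTRL does not by itself show a difference between the diets. None of Col1a1 (log2FC -0.05 on CTRL), Lingo1 (-0.07), Fgfr1 (0.0080) and Rab38 (-0.13) had on CTRL the size it had on HFD, while Ccn3 was at 0.52 and Serpina3g at -0.78 (0.85 and -1.39 on HFD). Across CR20-CTRL against FED-CTRL, 0 genes (0%) had an adjusted p under 0.05 by edgeR, where voom with quality weights called 284 and DESeq2 371. This 0 depended on single libraries, as edgeR called 540 genes without FED-CTRL mouse 42, 222 without CR20-CTRL mouse 4, 55 without CR20-CTRL mouse 5, 33 without FED-CTRL mouse 14 and 50 with no filter. There 2887 genes (17.3%) had an unadjusted p under 0.05, 1774 higher (10.7%) and 1113 lower (6.68%), and without CR20-CTRL mouse 49 the number higher was 1134.

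The 2 comparisons have no mouse in common. Of the genes at an unadjusted p under 0.05, 139 were shared, which is 12.3% of the HFD genes (17.3% of all tested genes were at the threshold on CTRL) and 4.81% of the CTRL genes (6.77% of all on HFD). The overlap was thus below the share over all genes, and 88 of the 139 had the same sign and 51 the opposite. Across the 16657 genes, which are not independent replicates, the log2FC on HFD and that on CTRL had a Pearson r of 0.03 and a Spearman rho of 0.05. The interaction itself gave 0 genes (0%) at an adjusted p under 0.05 by edgeR (smallest adjusted p = 0.314) and 1833 (11%) at an unadjusted p under 0.05, while voom with quality weights called 0 (2817) and DESeq2 2 (1897). A difference between the diets was thus not called by edgeR for any named gene.

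**Figure D5:**
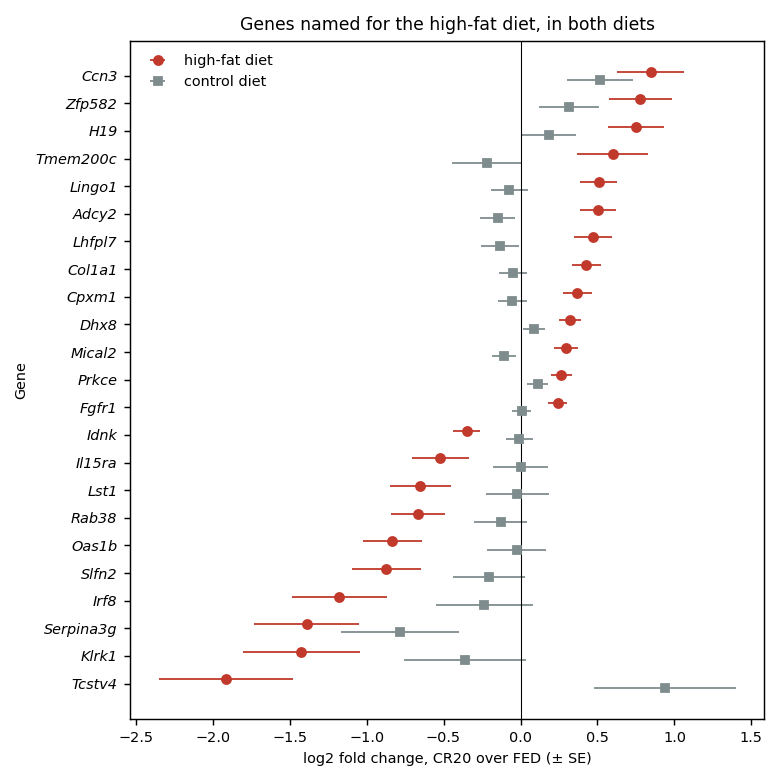
Log2FC with standard error of the leading genes on the high-fat diet and on the control diet, without Cox8b and Hp. Col1a1 was 0.43 on HFD and -0.05 on CTRL, Ccn3 0.85 and 0.52, and Serpina3g -1.39 and -0.78.

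In the eWAT of the same 12 mice, some of the named genes passed edgeR's test, which called 2385 of the 15964 genes tested in that tissue (14.9%). Ccn3 rose in CR20-HFD there, with a log2FC of 1.05 (adjusted p = 0.00175), and its pituitary value was 0.85. Slfn2 (-1.29, adjusted p = 0.00172), Irf8 (-1.11, adjusted p = 0.00147), Lst1 (-1.10, adjusted p = 0.00483), Klrk1 (-0.89, adjusted p = 0.0130), Tcstv4 (-0.87, adjusted p = 0.0392) and Npas4 (-1.95, adjusted p = 0.0350) fell in eWAT, and their pituitary values were negative as well. Those of Irf8 and Npas4 in the pituitary rested in large part on a single FED-HFD mouse each. Only named genes that passed in eWAT are given, so they do not measure how far the tissues agree. The cell cycle genes Mki67 (-1.26, adjusted p = 0.00688), Mcm2 (-0.88, adjusted p = 0.0196), Ccnb1 (-1.16, adjusted p = 0.0426) and Ccna2 (-1.11, adjusted p = 0.0352) also fell in eWAT, where their pituitary values were 0.69, 0.28, 1.00 and 0.56. Mical2 (-0.65) and Igf2r (-0.66) fell and Sult1a1 (0.68), Trib3 (0.42) and Ndufb9 (0.53) rose in eWAT, each opposite in sign to its pituitary value, and Fdft1 (0.59) rose with the same sign (adjusted p at most 0.0434 for each of these 6). In the liver every named gene that was tested had an adjusted p of 0.9998 or above, and Ccn3 was not tested there. The difference between the tissues was not tested.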

How the data were processed

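The authors deposited a table of counts per Ensembl gene for 72 libraries, for which the reads were trimmed with Trimmomatic, aligned to GRCm39 by STAR and counted by featureCounts (versions not given in the sources used here). Of its 55416 genes, 54749 were given a name and position from GENCODE M39, and 667 had no match. The groups come from the deposited column names. All 24 pituitary libraries were fitted together with edgeR 4.0.16 in R 4.3.3 (filterByExpr by group, TMM, estimateDisp, glmQLFit, glmQLFTest), with 1 mean per group (4 groups), two-sided tests and Benjamini-Hochberg adjustment over the 16657 tested genes. The comparisons were CR20-HFD against FED-HFD, CR20-CTRL against FED-CTRL and their difference, the interaction. A standard error is the absolute log2FC divided by the square root of F, and log2 CPM values use TMM factors and a prior count of 2. The median standard error over all tested genes was 0.13. Single values were compared by an exact permutation test over 924 divisions of the 12 mice (SciPy 1.17.1, two-sided). Figures were drawn with matplotlib 3.10.9 in Python 3.11. The fits were tested on simulated data in which 200 genes were changed and no mouse was outlying. Those changes were larger than most differences found here, so this does not show how well smaller ones are detected.

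The alternatives were robust empirical Bayes, fits without each mouse, a covariate for the animal-number range (below 20, from 20 to 39, or 40 or more), a fit of the 2 groups alone, DESeq2 1.42.0, its size factors in edgeR, limma 3.58.1 voom with and without quality weights, no filter, and a filter that asks for more than 1 CPM in 6 or more libraries. The values of lists and listed genes without each mouse were added after seeing the data. Named genes are the 7 hormone genes, Ghrhr and Ghsr, the 10 higher and 10 lower protein-coding genes with the smallest p and a full symbol, up to 4 genes of smallest p in each of the 19 pathway lists, the most abundant gene of each of the 20 marker lists, and the 3 higher and 3 lower non-overlapping genes with the largest absolute log2FC at a mean log2 CPM of at least 1. Other genes at an unadjusted p under 0.05 in a list were named after their values were seen, as was Fos. The members and the lists were chosen with earlier results of these data known. No set test was run. Some results that were obtained are not reported here.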

Additional observations from a re-analysis of the deposited data

Results flagged for a closer look

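Each value here lay far from the other mice of its group of 6, with a gap to the nearest mouse that passed Dixon's critical value for 6 samples. Of 118 groups of values tested, 10 were marked (8.47%), where chance marks about 1 in 20. FED-HFD mouse 10 was highest in Cox8b (log2 CPM 5.82, next -0.81), in Hp (4.51, next -0.02) and in the summed adipocyte markers (46.1 CPM, next 0.383). FED-HFD mouse 13 was highest in the summed red blood cell markers (13926 CPM, next 2114) and lowest in Zfp582 (-0.39, next 0.52). FED-HFD mouse 23 was lowest in Oas1b (1.29, next 2.14). CR20-HFD mouse 7 was lowest in Ghrhr (6.80, next 7.52) and highest in the adipocyte markers at a level near 0 (0.449 CPM, next 0.127). CR20-HFD mouse 31 was highest in the lymphocyte markers (17.5 CPM, next 12.5), and CR20-HFD mouse 6 in the nerve and Schwann cell markers (134 CPM, next 86.7).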

How the results depend on the processing

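Of 34 single genes followed, 29 had no opposite sign under any setting. The others were Gh (-0.02; 0.0034 with a covariate for the animal-number range, -0.10 to 0.069 without a mouse), Prl (-0.25 to 0.020 without a mouse), Lhb (-0.31 to 0.0043), Ghrhr (0.053 by voom with quality weights, -0.086 to 0.11 without a mouse) and Cox8b (-4.76 to 0.26, positive without FED-HFD mouse 10). With no filter edgeR called 16 genes, among them Cox8b, Serpina3g, Irf8 and Hp (adjusted p = 0.0033, 0.0181, 0.0227 and 0.0249). For CR20-HFD against FED-HFD and for the interaction, the counts over all genes that moved by over 1.5 times were those at an unadjusted p under 0.05 by voom with quality weights (1932, interaction 2817) and with no filter, which tests more genes (2332, interaction 3155), and the non-overlapping genes without a mouse (69 to 142). The cause was not tested for the others. On the control diet edgeR called 0 to 540 genes without a mouse. No paired analysis was possible because the groups share no animal number and the dam of each mouse is not given in the sources used here. The animal-number ranges divide the groups unevenly (2, 2 and 2 mice of CR20-HFD, 4, 1 and 1 of FED-HFD), and what they stand for is not stated. Depth limits genes near 3 counts, such as those of adipocytes in 11 of the 12 mice.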
